A study of Mus musculus with 14 samples.

Results

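This set holds 9 mouse genes of glutamine and branched-chain amino acid metabolism, listed by name with earlier results of these data known, and every one was found among the 55416 genes listed in each library. They are Glul (ENSMUSG00000026473), Bcat2 (ENSMUSG00000030826), Bckdha (ENSMUSG00000060376), Bckdk (ENSMUSG00000030802), Slc38a2 (ENSMUSG00000022462), Slc7a5 (ENSMUSG00000040010), Slc3a2 (ENSMUSG00000010095), Slc1a5 (ENSMUSG00000001918) and Slc43a1 (ENSMUSG00000027075). Bulk RNA was sequenced from gastrocnemius, a calf muscle, and from lung of C57BL/6 (C57BL/6NCrlOri) mice. The protocol describes males aged 6 to 8 weeks that received cells of a line named KrasIKKaL through the trachea. Titles sort the 14 libraries into 4 groups, read here as tumour-bearing (TB) and control (CON): 3 TB and 3 CON libraries of muscle, and 5 TB and 3 CON libraries of lung. The labels do not tell what the CON mice received, how the cell line was made, whether lung and muscle came from the same mice, or whether the libraries of a group came from separate animals. The p-values below therefore measure only the spread between these libraries, which may be technical.

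Glul encodes glutamine synthetase, which joins ammonia to glutamate. Muscle is a main source of circulating glutamine, and the nitrogen for it comes largely from leucine, isoleucine and valine, the branched-chain amino acids. Bcat2 is the mitochondrial aminotransferase that takes that nitrogen off, Bckdha is a subunit of the dehydrogenase that commits the remaining carbon to breakdown, and Bckdk is the kinase that switches the dehydrogenase off. The other members move amino acids across the plasma membrane. Slc7a5 (LAT1) pairs with Slc3a2 (the heavy chain, 4F2hc) to exchange large neutral amino acids, Slc43a1 (LAT3) lets branched-chain amino acids pass by facilitated diffusion, Slc38a2 (SNAT2) takes up glutamine and small neutral amino acids with sodium, and Slc1a5 (ASCT2) exchanges glutamine for other neutral amino acids.

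The RefSeq promoter table (GRCm38.p6) held windows of 300 bases, 250 before and 50 after the start site, for 7 of the 9 genes, with a second window for Bcat2. Slc7a5 and Slc1a5 had none in it. The windows of Glul, Slc43a1 and Slc3a2 are shown because these genes had the smallest adjusted p-values of the set in muscle and also differed in lung. Capitals mark the letters of the motifs searched on both strands, the Klf-type CACCC and the core of the glucocorticoid receptor element ACANNNTGT, none of which overlap here. The windows are chr1:153899679-153899978 on the plus strand for Glul, chr2:84840073-84840372 on the plus strand for Slc43a1 and chr19:8713848-8714147 on the minus strand for Slc3a2, each written 5′ to 3′.
Glul: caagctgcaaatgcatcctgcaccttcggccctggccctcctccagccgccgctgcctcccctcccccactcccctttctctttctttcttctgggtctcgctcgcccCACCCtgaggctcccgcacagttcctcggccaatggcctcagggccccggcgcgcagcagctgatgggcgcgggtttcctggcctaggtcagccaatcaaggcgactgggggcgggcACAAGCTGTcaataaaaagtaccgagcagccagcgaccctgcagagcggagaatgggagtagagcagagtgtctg
Slc43a1: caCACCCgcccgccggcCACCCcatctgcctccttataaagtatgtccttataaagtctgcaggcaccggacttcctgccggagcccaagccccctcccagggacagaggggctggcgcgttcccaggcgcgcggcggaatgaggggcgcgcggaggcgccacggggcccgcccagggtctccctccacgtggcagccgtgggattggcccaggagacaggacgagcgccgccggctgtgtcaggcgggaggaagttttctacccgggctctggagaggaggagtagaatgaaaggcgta
Slc3a2: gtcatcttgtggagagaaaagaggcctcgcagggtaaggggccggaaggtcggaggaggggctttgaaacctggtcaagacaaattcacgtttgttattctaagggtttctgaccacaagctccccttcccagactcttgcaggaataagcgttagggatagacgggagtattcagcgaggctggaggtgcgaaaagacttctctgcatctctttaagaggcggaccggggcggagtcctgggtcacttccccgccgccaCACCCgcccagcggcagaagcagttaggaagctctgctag

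The Glul window held 1 match to ACANNNTGT, ACAAGCTGT, which began 25 bases before the start site, and 1 CACCC that began 142 bases before it. Among the 8 windows of the set, 1 held ACANNNTGT, against 6.85% of the 32851 windows in the table. CACCC stood in 6 of the 8, against 57.5% of all windows, and the ATF4-type element TGATGNAA in 0 of the 8, against 3.97%. These matches are letters in a window and were not measured as binding sites.

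Values below are counts-per-million (CPM) relative to library sizes scaled by the TMM method, unless TPM, which also divides by transcript length, is named. Changes are log2 fold changes of TB over CON with their standard error (SE), and adjusted p-values come from edgeR's quasi-likelihood test over all genes tested in that comparison, with a threshold of 0.05. Muscle libraries held 32476194 to 44169410 counts and lung libraries 47947363 to 61087315. Markers of skeletal muscle fibres and alveolar type 2 cells went with the labelled tissue in muscle and in CON lung. Heart muscle markers were also present in CON lung, at a sum of 262 to 675 CPM. Markers of skeletal muscle fibres summed to 69899 to 118435 CPM in TB muscle and 82009 to 91760 CPM in CON muscle, against at most 17.5 CPM in any lung library, with Myh4 at 0 in all lung libraries. Sftpc and Sftpa1, of alveolar type 2 cells, were at 0 in all muscle libraries. Mitochondrial genes took 17.6% to 24.0% of counts in TB muscle and 16.2% to 34.1% in CON muscle.

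The first question was which of the 9 genes differ between TB and CON gastrocnemius. In TB muscle 5 were higher and 0 lower: Glul by 5.85-fold, Slc7a5 by 4.20-fold, Slc43a1 by 3.71-fold, Slc3a2 by 3.17-fold and Bckdha by 2.07-fold. Bcat2, Bckdk, Slc38a2 and Slc1a5 did not pass the threshold. Of the 14373 genes tested in muscle, 15.3% passed in either direction, 8.53% higher and 6.75% lower. That split of 1226 higher and 970 lower genes became 760 and 1079 under upper-quartile scaling. The groups of the same 5 members did not overlap, against 43.1% of all genes tested. The median log2 change of the 9 genes was 1.05, against -0.03 over all genes.

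Glul, the synthesis step, had 844, 566 and 785 CPM in TB muscle, against 138, 125 and 113 CPM in CON muscle. Every TB library lay above every CON library, with TB 2 the lowest of its group. The log2 change was 2.55 (SE 0.29, adjusted p = 0.00587), and it stayed past the threshold in all 16 alternative analyses, with adjusted p-values up to 0.0394. Glul also had the highest TPM of the 9 genes in TB muscle, at 225 ± 94.4 (SD, n = 3), while in CON muscle, at 36.0 ± 15.5 TPM (SD, n = 3), its libraries overlapped those of Bckdha and Bcat2.

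Branched-chain catabolism was read from 3 members. Bckdha, the dehydrogenase subunit, had 135, 91.2 and 161.8 CPM in TB muscle, against 64.9, 66.3 and 56.5 CPM in CON muscle. The groups did not overlap, although TB 2 lay nearer to the CON libraries than the others did. The change of 1.05 (SE 0.29, adjusted p = 0.0415) was lost without any 1 of the 3 CON libraries (adjusted p 0.123 to 0.157), without TB 1 (0.0544) or TB 3 (0.0865), under upper-quartile scaling (0.0726) and without scaling factors (0.144). Its abundance-weighted transcript length was 1899, 1563 and 1358 bases in TB muscle, against 1407, 1267 and 970 bases in CON muscle, from 2 annotated transcripts. TPM, which divides by that length, was 81.0, 55.8 and 74.0 in TB muscle, against 53.4, 42.3 and 36.9 in CON muscle, still without overlap. On log2(TPM + 1) the change was 0.66, and limma gave an adjusted p of 0.358. In lung the length was 1890 to 1899 bases in all 8 libraries.

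**Figure D1:**
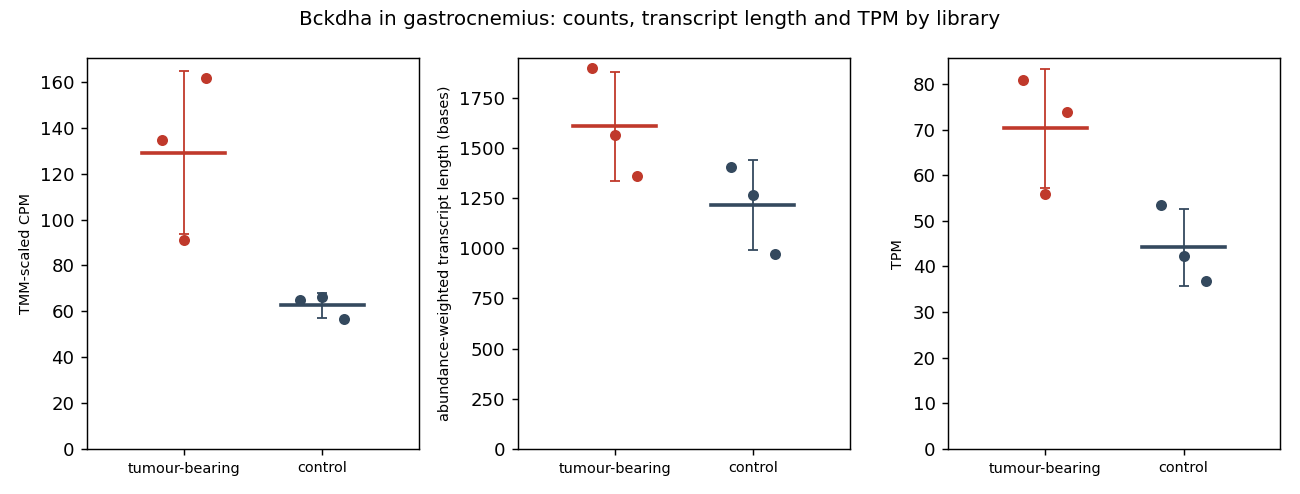
Bckdha in gastrocnemius, TB libraries on the left and CON on the right of each panel: TMM-scaled CPM, the abundance-weighted transcript length in bases, and TPM. Points are libraries, lines are means and bars are SD (n = 3 each). CPM and TPM do not overlap between groups, while the length ranges of 1358 to 1899 bases in TB and 970 to 1407 bases in CON do.

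Bckdk, the inhibitory kinase, had 82.9, 77.3 and 64.9 CPM in TB muscle, against 90.2, 94.0 and 72.5 CPM in CON muscle, and the groups overlapped (change -0.19, SE 0.25, adjusted p = 0.608). The TPM ratio of Bckdk to Bckdha was 0.930, 0.875 and 0.432 in TB muscle, against 1.43, 1.37 and 0.974 in CON muscle. Every TB library had more Bckdha than Bckdk TPM, as had 1 of the 3 CON libraries. The log2 ratio differed by -0.81, and a two-sided exact permutation test gave p = 0.1, the smallest that 3 against 3 libraries allow. It was -0.46 without TB 3 and -1.20 from CPM. Bcat2, the aminotransferase, had 29.9, 36.9 and 29.4 CPM in TB muscle, against 39.0, 41.3 and 34.7 CPM in CON muscle. TB 2 lay above CON 3, and the change of -0.26 (SE 0.24) had an adjusted p of 0.460.

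The transporters fell into those that were higher in TB muscle and those that did not pass. Slc3a2, the heavy chain, had 59.9, 37.5 and 69.4 CPM in TB muscle, against 17.0, 18.4 and 17.2 CPM in CON muscle. The lowest TB library lay above all CON libraries, and the change was 1.67 (SE 0.29, adjusted p = 0.0139). The weighted transcript length of Slc3a2 was 1876, 1827 and 1758 bases in TB muscle, against 1955, 1995 and 2290 bases in CON muscle, without overlap. Slc43a1 had 45.6, 34.5 and 72.0 CPM in TB muscle, against 14.7, 13.9 and 12.4 CPM in CON muscle, again with TB 2 the lowest of its group and no overlap. Its change was 1.89 (SE 0.32, adjusted p = 0.0128). Without any 1 CON library the changes of both genes stayed between 1.65 and 1.95, but adjusted p rose to 0.064 to 0.0782 for Slc3a2 and 0.0577 to 0.0767 for Slc43a1. On log2(TPM + 1) limma gave adjusted p-values of 0.0524 for Slc3a2 and 0.0583 for Slc43a1.

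Slc7a5, the light chain that carries the substrate, was the least abundant member in muscle on the TPM scale, at 1.15 ± 1.14 in TB and 0.227 ± 0.0907 in CON (SD, n = 3 each). It had 396, 67 and 90 counts in TB muscle, or 8.03, 1.72 and 3.47 CPM, against 37, 51 and 22 counts in CON muscle, or 0.795, 1.53 and 0.836 CPM. The groups did not overlap, but TB 2 lay only just above CON 2. The change of 2.07 (SE 0.57, adjusted p = 0.0427) dropped to 1.31 (adjusted p = 0.11) without TB 1. It also missed the threshold without TB 3 (0.0672), without any 1 CON library (0.0913 to 0.154), under upper-quartile scaling (0.058), without scaling factors (0.0569), in limma-voom (0.07) and on log2(TPM + 1) (0.178). The TPM ratio of Slc7a5 to Slc3a2 was 0.0677, 0.0224 and 0.0234 in TB muscle, against 0.0250, 0.0445 and 0.0313 in CON muscle. These ranges overlapped, and the log2 ratio differed by 0.01 (two-sided exact permutation p = 1, smallest possible 0.1).

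Slc38a2 had 103, 49.1 and 47.6 CPM in TB muscle, against 130, 105 and 100 CPM in CON muscle. TB 1 lay within the CON range and the other TB libraries lay below it. The change was -0.75 (SE 0.35, adjusted p = 0.154), and without TB 1 it was -1.19 with an adjusted p of 0.0221. Slc1a5 had 5.72, 8.95 and 15.4 CPM in TB muscle, against 9.59, 10.9 and 14.5 CPM in CON muscle, and the TB range enclosed the CON range (change -0.22, SE 0.38, adjusted p = 0.693).

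**Figure D2:**
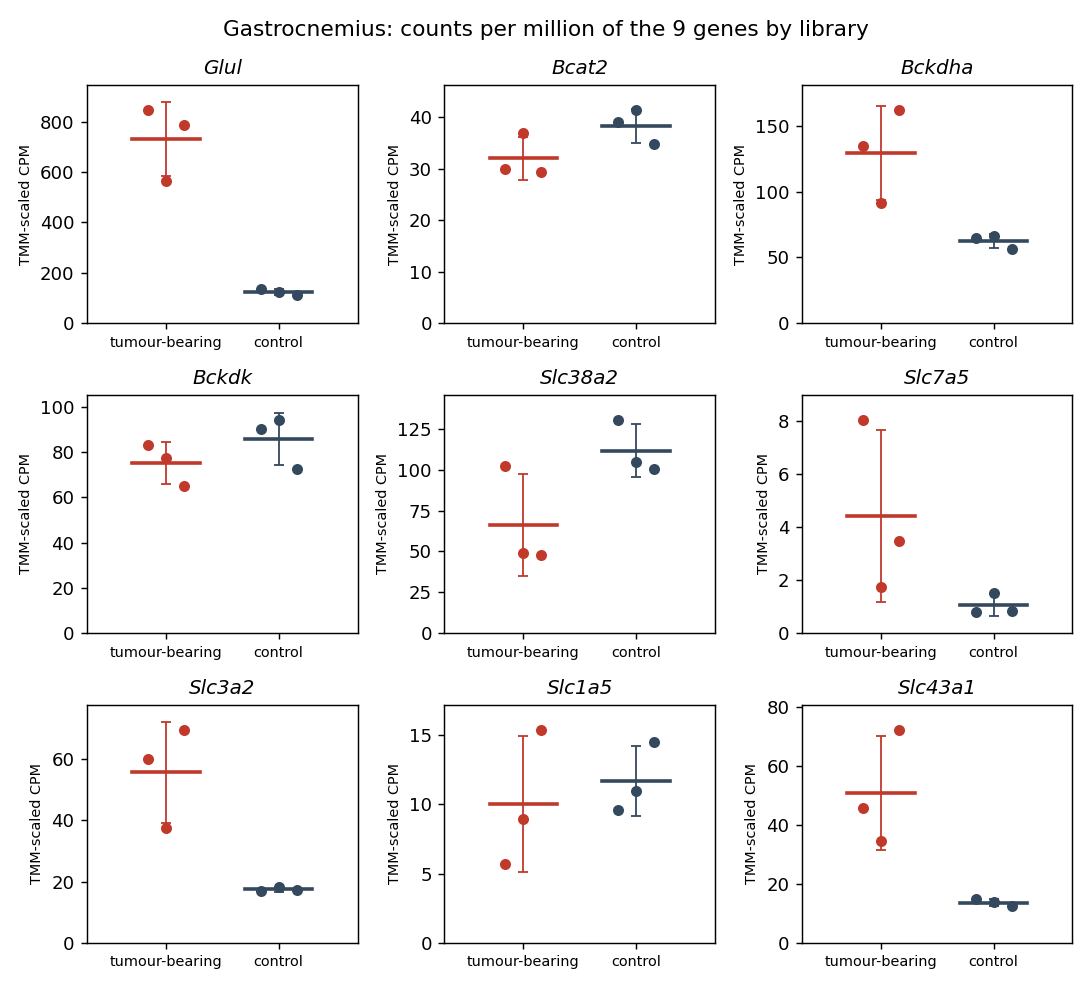
TMM-scaled CPM of the 9 genes in gastrocnemius, 1 panel per gene, with TB libraries on the left and CON libraries on the right. Points are libraries, lines are means and bars are SD (n = 3 each). The groups are apart for Glul, Bckdha, Slc7a5, Slc3a2 and Slc43a1 and overlap for the other 4 genes.

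Bulk libraries cannot tell fewer cells of a type from less RNA per cell. In muscle, 1 of 8 muscle fibre markers was higher and 0 lower, 4 of 6 fibroblast markers were lower (summed level 361 to 994 CPM in TB and 683 to 1541 CPM in CON), and 3 of 3 tested neutrophil markers were higher (4.24 to 4.94 CPM in TB and 0.537 to 1.25 CPM in CON, with Mpo at 0). Heart muscle markers summed to 10.9 to 31.5 CPM in TB and 81.6 to 97.0 CPM in CON, with Myl7 at 0, and 1 of 3 tested was lower. T cell markers summed to 0.122 to 0.283 CPM in TB, with Cd8a at 0, and 1.35 to 1.91 CPM in CON, and B cell markers to 0.0608 to 0.463 CPM in TB and 0.899 to 1.86 CPM in CON, with 1 of 1 tested lower in each. Red blood cell markers summed to 468 to 8078 CPM in TB and 384 to 655 CPM in CON, and 0 of 5 passed. Their part in the results above was not tested.

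Around these members, other genes of the pathway were described from lists. Of 16 tested genes of glutamine and glutamate metabolism 3 were higher in TB muscle and 0 lower, with a median log2 change of 0.18, where 15.3% of all genes passed. Under the alternatives 0 to 5 were higher and 0 to 2 lower. Oat, which makes glutamate semialdehyde from ornithine, averaged 141 ± 22.2 CPM in TB and 66.0 ± 9.92 CPM in CON (SD, n = 3 each; change 1.10, SE 0.26, adjusted p = 0.0296). Prodh, proline dehydrogenase, changed by 1.39 (SE 0.38, adjusted p = 0.0407). Gclm, the modifier subunit of the first enzyme of glutathione synthesis, changed by 1.46 (SE 0.41, adjusted p = 0.0454).

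Of the 22 other genes of branched-chain catabolism, 3 were higher in TB muscle and 0 lower, where 15.3% of all genes passed. Their median was 0.15, and under the alternatives 0 to 5 were higher and 0 to 1 lower. Bckdhb, the partner subunit of Bckdha, averaged 27.3 ± 0.911 CPM in TB and 13.5 ± 2.24 CPM in CON (SD, n = 3 each; change 1.01, SE 0.25, adjusted p = 0.0323). Echs1 and Hsd17b10, enzymes of the later steps, changed by 1.37 (SE 0.40, adjusted p = 0.0486) and 0.91 (SE 0.25, adjusted p = 0.0416). Dbt, the core of the same dehydrogenase complex, did not pass (0.25, SE 0.27, adjusted p = 0.520), nor did Ppm1k, the phosphatase that opposes Bckdk (-1.32, SE 0.40, adjusted p = 0.0548). These 2 genes were picked for their place in the complex after their values were seen.

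Among 33 other amino acid transporters, 24 had enough counts in muscle to be tested. Of these 3 were higher and 1 lower, with a median of 0.18, where 15.3% of all genes passed. Under the alternatives 0 to 8 were higher and 0 to 3 lower. Slc7a8 (LAT2), another light chain that pairs with Slc3a2, averaged 13.2 ± 8.27 CPM in TB and 2.66 ± 0.764 CPM in CON (SD, n = 3 each; change 2.31, SE 0.46, adjusted p = 0.0177). Slc25a44, the mitochondrial carrier of branched-chain amino acids, changed by 2.02 (SE 0.50, adjusted p = 0.0331), and Slc7a6, also a partner of Slc3a2 and named after its values were seen, by 1.06 (SE 0.29, adjusted p = 0.0404). Slc38a3 (SNAT3), a glutamine transporter, was lower, at 22.9, 15.4 and 13.3 CPM as the highest, middle and lowest TB libraries, against 52.5, 47.5 and 41.5 CPM in CON muscle (change -1.45, SE 0.29, adjusted p = 0.0177).

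Of 29 genes that sense amino acids upstream of mTORC1, 2 were higher in TB muscle and 0 lower, where 15.3% of all genes passed. Their median was 0.18, and under the alternatives 0 to 6 were higher and 0 to 2 lower. Sesn1, a sestrin that binds the GATOR2 complex, averaged 114 ± 88.4 CPM in TB and 7.87 ± 0.820 CPM in CON (SD, n = 3 each; change 3.85, SE 0.67, adjusted p = 0.0134). Sesn2, a leucine-binding sestrin, changed by 1.77 (SE 0.43, adjusted p = 0.0312). Lars, the leucyl-tRNA synthetase, did not pass (0.88, SE 0.28, adjusted p = 0.0638).

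A list of 11 regulators known from other work on these genes held 5 that were higher in TB muscle and 1 that was lower. Over all genes 15.3% passed. The median of the list was 1.39, and under the alternatives 1 to 6 were higher and 0 to 2 lower. Foxo1, a transcription factor of fasting and atrophy, averaged 113 ± 40.2 CPM in TB and 20.5 ± 2.74 CPM in CON (SD, n = 3 each; change 2.47, SE 0.32, adjusted p = 0.00673). Klf15, a glucocorticoid-induced factor known to act on branched-chain catabolism, changed by 2.90 (SE 0.50, adjusted p = 0.0130). Myc changed by 3.32 (SE 0.60, adjusted p = 0.0145) and Foxo3 by 1.61 (SE 0.32, adjusted p = 0.0174). Atf4, the factor of the amino acid response, changed by 1.47 (SE 0.35, adjusted p = 0.0277), and Mlxipl by -1.39 (SE 0.35, adjusted p = 0.0346). Atf4 and Mlxipl were named after their values were seen. The call of Foxo1 held in all 16 alternatives, and that of Sesn1 was lost in 3, of Slc7a8, Klf15 and Myc in 4, of Sesn2, Slc25a44 and Foxo3 in 5, of Oat and Slc38a3 in 6, of Hsd17b10 in 7, of Prodh, Gclm and Bckdhb in 8 and of Echs1 in 9.

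In lung, 1 of the 9 genes was higher in TB libraries and 3 were lower: Slc7a5 was 3.29-fold higher, and Slc43a1 was 6.67-fold, Glul 2.64-fold and Slc3a2 1.63-fold lower. Bcat2, Bckdha, Bckdk, Slc38a2 and Slc1a5 did not pass. Of the 19300 genes tested in lung 59.7% passed, 30.4% higher and 29.3% lower. The groups did not overlap for 5 members, Glul, Bckdk, Slc7a5, Slc1a5 and Slc43a1, against 63.0% of all genes tested. The median log2 change of the 9 genes was 0.10, against 0.07 over all genes.

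These lung groups also differed in their cell type markers. Alveolar type 2 markers summed to 122 to 998 CPM in TB lung and 19611 to 21631 CPM in CON lung (5 of 5 lower), and endothelial markers to 136 to 164 CPM in TB and 2608 to 2728 CPM in CON (6 of 6 lower). Alveolar type 1 (4 of 4), club cell (3 of 3), ciliated cell (4 of 4), red blood cell (5 of 5) and B cell (4 of 4) markers were lower too. In part lower were fibroblast (3 of 6), neutrophil (3 of 5) and heart muscle (3 of 5) markers, with 0 higher. Adipocyte (2 of 4 tested) and T cell (1 of 6) markers were also lower in part. Of 6 macrophage markers 1 was higher and 2 lower (282 to 424 CPM in TB and 255 to 275 CPM in CON). Of 5 tested muscle fibre markers 1 was higher and 4 lower. Heart muscle markers summed to 87.3 to 373 CPM in TB and 262 to 675 CPM in CON. Markers of dividing cells summed to 285 to 685 CPM in TB and 30.9 to 43.3 CPM in CON (6 of 6 higher), and those of liver and kidney epithelium to 185 to 2038 CPM in TB and 1.61 to 1.78 CPM in CON (4 of 4 tested higher, Umod at 0 in TB). The labels do not give the share of injected cells in these libraries, and the part of these shifts in the changes of the 9 genes was not tested.

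Glul had 400, 127, 246, 361 and 219 CPM in TB lung, against 713, 725 and 708 CPM in CON lung. Every TB library lay below every CON library, with TB 2 the lowest and TB 1 the highest of their group. The change was -1.40 (SE 0.33, adjusted p = 0.00506).

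The catabolic members did not pass in lung. Bcat2 had 37.0, 32.7, 20.1, 33.6 and 20.8 CPM in TB lung, against 23.3, 23.1 and 23.9 CPM in CON lung, with 3 TB libraries above the CON range and 2 below it (change 0.30, SE 0.24, adjusted p = 0.301). Bckdha had 36.1, 34.3, 37.3, 49.5 and 25.7 CPM in TB lung, against 37.1, 33.8 and 31.6 CPM in CON lung, and the TB range enclosed the CON range (change 0.10, SE 0.21, adjusted p = 0.699). Bckdk had 33.8, 50.1, 46.9, 42.7 and 32.8 CPM in TB lung, against 31.3, 29.8 and 30.0 CPM in CON lung. All 5 TB libraries lay above the CON libraries, and the change was 0.44 (SE 0.18, adjusted p = 0.0604), which passed without TB 1 (adjusted p = 0.0316) or TB 5 (0.0203). The TPM ratio of Bckdk to Bckdha was 1.16, 1.73, 1.37, 0.926 and 1.38 in TB lung, against 0.891, 0.888 and 0.980 in CON lung. TB 4 lay within the CON range and the others above it (log2 difference 0.48, two-sided exact permutation p = 0.0714).

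The chains of the LAT1 transporter differed in opposite directions in lung. Slc7a5 had 45.2, 85.7, 103, 102 and 163 CPM in TB lung, against 27.7, 30.1 and 33.1 CPM in CON lung, without overlap (change 1.72, SE 0.36, adjusted p = 0.00285). Slc3a2 had 135, 141, 181, 204 and 307 CPM in TB lung, against 323, 321 and 305 CPM in CON lung. TB 5, the highest TB library for both chains, overlapped the CON libraries, and the change was -0.71 (SE 0.26, adjusted p = 0.0421). It was -0.90 without TB 5 (adjusted p = 0.0028) but missed the threshold without any other 1 library (0.0619 to 0.103). The TPM ratio of Slc7a5 to Slc3a2 was 0.179, 0.330, 0.307, 0.269 and 0.281 in TB lung, against 0.0458, 0.0495 and 0.0600 in CON lung. Every TB ratio lay above every CON ratio, with TB 1 the lowest of its group. The log2 ratio differed by 2.38, with a two-sided exact permutation p of 0.0357, the smallest that 5 against 3 libraries allow.

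**Figure D3:**
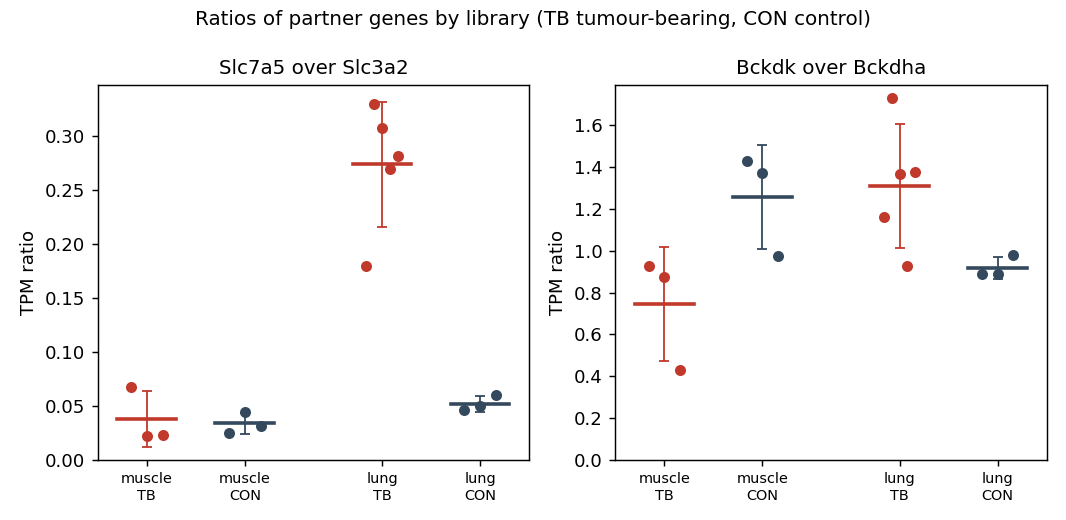
TPM ratios by library, TB left of CON in each tissue, with Slc7a5 over Slc3a2 in the left panel and Bckdk over Bckdha in the right. Points are libraries, lines are means and bars are SD (5 TB lung libraries, 3 in each other group). The ratio of Slc7a5 to Slc3a2 is 0.179 to 0.330 in TB lung and 0.0458 to 0.0600 in CON lung, and overlaps between the groups in muscle.

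The other transporters had lower or overlapping levels. Slc43a1 was scarce in lung, with 28, 84, 28, 13 and 31 counts in TB libraries, or 0.458, 1.67, 0.477, 0.269 and 0.759 CPM, against 306, 308 and 241 counts in CON libraries, or 4.98, 5.18 and 4.38 CPM. The groups did not overlap, and TB 2 was the highest of its group (change -2.74, SE 0.53, adjusted p = 0.00199). Slc1a5 had 115, 92.1, 69.4, 106 and 52.5 CPM in TB lung, against 119, 129 and 134 CPM in CON lung. All TB libraries lay below the CON libraries, TB 1 only just, and the change was -0.55 (SE 0.24, adjusted p = 0.0811). It passed without TB 1 (adjusted p = 0.0478), without scaling factors (0.0389) and on log2(TPM + 1), where limma gave -1.06 and an adjusted p of 0.00576. Slc38a2 had 154, 224, 238, 169 and 353 CPM in TB lung, against 188, 189 and 194 CPM in CON lung, with TB libraries on both sides of the CON range (change 0.26, SE 0.26, adjusted p = 0.420).

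**Figure D4:**
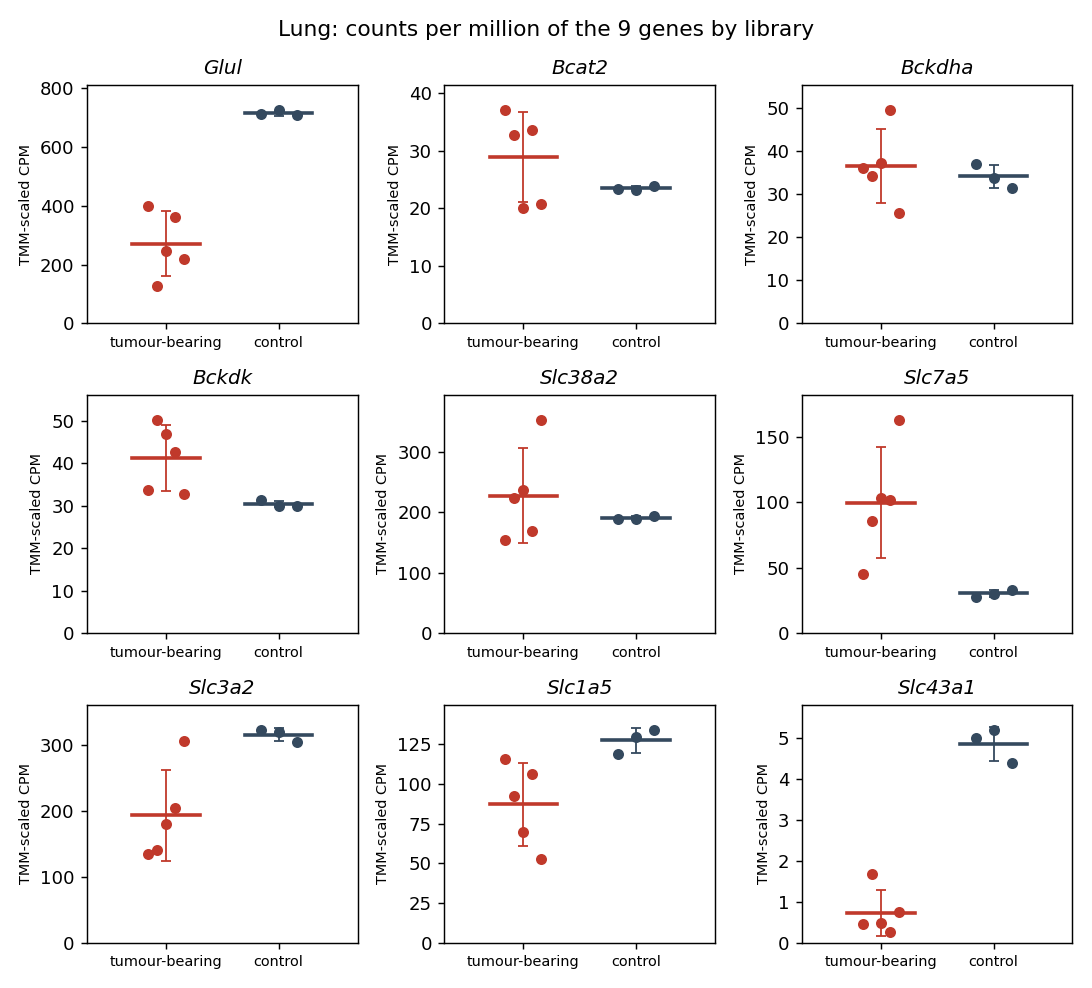
TMM-scaled CPM of the 9 genes in lung, 1 panel per gene, with 5 TB libraries on the left and 3 CON libraries on the right. Points are libraries, lines are means and bars are SD. CON libraries lie close together, TB libraries are spread, and the groups are apart for Glul, Bckdk, Slc7a5, Slc1a5 and Slc43a1.

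Among 17 genes of glutamine and glutamate metabolism, 7 were higher and 4 lower in TB lung (median 0.37), and 5 to 8 were higher and 4 to 6 lower under the alternatives, where 59.7% of all genes passed. Got1 and Psat1, aminotransferases that use glutamate, changed by 2.69 (SE 0.25, adjusted p = 3.53e-05) and 2.57 (SE 0.27, adjusted p = 6.3e-05). Oat was lower, at 19.1 ± 5.60 CPM in TB (SD, n = 5) and 211 ± 4.67 CPM in CON (SD, n = 3; change -3.46, SE 0.23, adjusted p = 6.29e-06). Of the 22 other branched-chain catabolism genes 3 were higher and 8 lower (median -0.44), and 1 to 4 were higher and 5 to 15 lower under the alternatives. Acadsb, the dehydrogenase of the isoleucine branch, changed by -1.95 (SE 0.18, adjusted p = 2.91e-05) and Auh, of the leucine branch, by -0.80 (SE 0.16, adjusted p = 0.00227), while Echs1 changed by 1.09 (SE 0.16, adjusted p = 0.000473).

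Of 33 other transporters, 5 were higher and 15 lower in TB lung (median -0.62), where 59.7% of all genes passed. Under the alternatives 3 to 8 were higher and 13 to 19 lower. Slc43a3, a relative of Slc43a1 that carries purine bases, averaged 13.9 ± 2.22 CPM in TB (SD, n = 5) and 388 ± 15.2 CPM in CON (SD, n = 3; change -4.81, SE 0.17, adjusted p = 7.03e-07). Slc38a5 and the glutamate transporter Slc1a3 changed by -7.44 (SE 0.48, adjusted p = 5.08e-06) and -5.99 (SE 0.42, adjusted p = 8.06e-06). Among 29 sensing genes, 11 were higher and 4 lower (median 0.18), against the same 59.7% of all genes. Under the alternatives 6 to 11 were higher and 3 to 7 lower. Sesn1 changed by -2.66 (SE 0.23, adjusted p = 2.4e-05) and Rragd, a Rag GTPase, by -3.95 (SE 0.44, adjusted p = 8.62e-05), while Rragb had 9 counts over the 5 TB libraries and 269 over the 3 CON libraries (adjusted p = 3.27e-05). Of the 11 regulators 1 was higher, Myc (1.35, SE 0.29, adjusted p = 0.00353), and 8 were lower (median -1.17), again against 59.7%. Under the alternatives 1 was higher and 7 to 8 lower. Klf15 had 0.377 to 3.50 CPM in TB and 73.3 to 85.6 CPM in CON (change -5.48, SE 0.71, adjusted p = 0.000192), Foxo3 changed by -2.48 (SE 0.32, adjusted p = 0.000202) and Mlxip by -0.95 (SE 0.15, adjusted p = 0.000619).

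Whether the difference between TB and CON was itself different in the 2 tissues was tested as the lung change minus the muscle change in 1 edgeR fit of all 14 libraries. The test found 4 members that differed, each with a lower value in lung: Slc43a1 by -4.62 (SE 0.62, adjusted p = 7.79e-05), Glul by -3.94 (SE 0.45, adjusted p = 2.02e-05), Slc3a2 by -2.37 (SE 0.38, adjusted p = 0.000336) and Bckdha by -0.94 (SE 0.32, adjusted p = 0.0352). Among all 19834 genes tested, 35.6% passed, 16.6% higher and 19.0% lower. Glul, Slc3a2 and Slc43a1 stayed past the threshold in all 23 alternatives. Bckdha missed it in 13 of the 23, with RLE scaling (adjusted p = 0.0567), with no filter (0.066) and without any 1 library (0.0501 to 0.0865) other than muscle TB 2, lung TB 3 and lung TB 4. Other members passed in 1 or 2 alternatives, Bckdk in DESeq2 (0.71, adjusted p = 0.039) and without lung TB 5 (0.78, 0.041), Slc38a2 without muscle TB 1 (1.45, 0.0142) and Slc1a5 on log2(TPM + 1) (-0.98, 0.0359). For Slc7a5, higher in both tissues, the difference was -0.35 (SE 0.65, adjusted p = 0.738), an uncertainty too wide to call the changes alike.

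**Figure D5:**
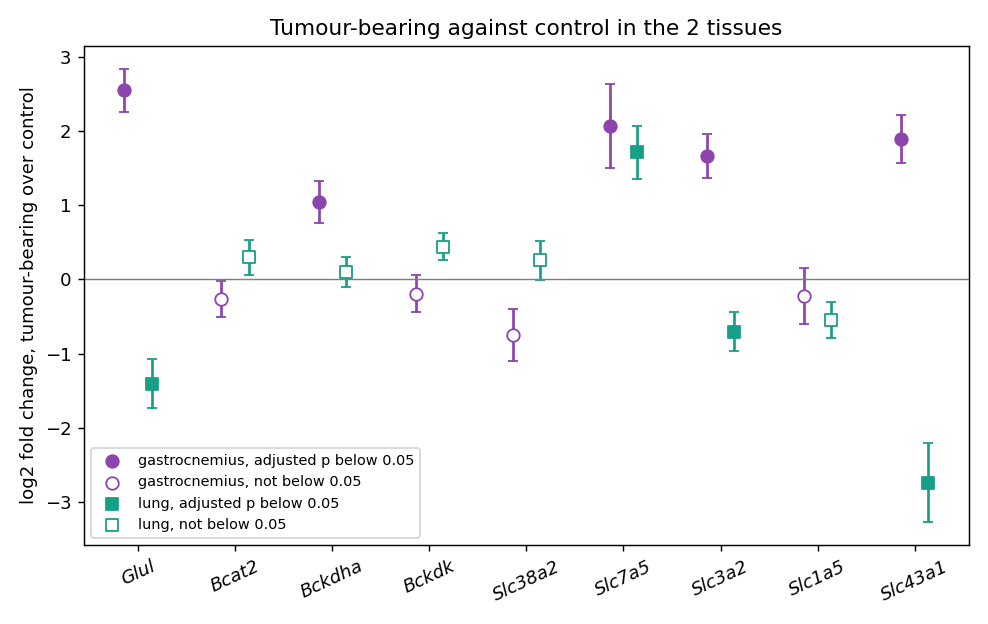
Log2 fold changes of TB over CON for the 9 genes, in muscle and in lung, with bars of 1 SE. Filled symbols passed the threshold and open ones did not. Glul, Slc3a2 and Slc43a1 lie above 0 in muscle and below 0 in lung, and Slc7a5 lies above 0 in both.

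Levels in the 2 tissues without tumour differed for all 9 members, where 81.3% of the 18053 genes tested did, 44.9% higher in lung and 36.5% lower. Tissue and library set cannot be told apart in this comparison. Slc7a5 (3.07, SE 0.23, adjusted p = 6.21e-06), Slc3a2 (2.39, SE 0.10, adjusted p = 2.73e-07), Slc1a5 (1.67, SE 0.15, adjusted p = 1.75e-05) and Glul (0.73, SE 0.12, adjusted p = 0.000565) were higher in CON lung than in CON muscle. Bckdk and Slc43a1 (-3.28 each), Bckdha (-2.66), Bcat2 (-2.49) and Slc38a2 (-1.01) were lower in lung. The median gene stood at 0.25 under TMM scaling, at 2.12 without scaling factors and at 1.66 on log2(TPM + 1), so levels are read relative to that shift. Slc38a2 passed as higher in lung without scaling factors (0.83, adjusted p = 0.0143) and on log2(TPM + 1) (1.76, adjusted p = 0.00133). In 1 fit of all 14 libraries it did not pass (-0.73, adjusted p = 0.0658), where the median gene stood at 0.51. The sign of its change thus depends on the scale used. Slc38a2 lay below the median gene under TMM scaling, without scaling factors and in the fit of all 14 libraries. On log2(TPM + 1) it lay just above that gene. Bcat2 (-0.51, adjusted p = 0.0963) and Slc43a1 (-0.18, adjusted p = 0.466) no longer passed on log2(TPM + 1). Both still lay below the median gene there, at 1.66.

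Within a group, TPM allow the genes to be ordered by level. In TB muscle Glul led, and its libraries did not overlap those of Bckdha (70.3 TPM), which overlapped Bckdk (52.0), which overlapped Slc3a2 (26.4), which overlapped Bcat2 (25.7). Slc43a1 (13.3) and Slc38a2 (12.6) overlapped each other, followed by Slc1a5 (3.63) and Slc7a5 (1.15) without overlap. In CON muscle Bckdk (56.7 TPM), Bckdha (44.2), Glul (36.0), Bcat2 (32.6) and Slc38a2 (18.5) each overlapped the next, as did Slc3a2 (6.91), Slc1a5 (3.90) and Slc43a1 (3.55), and Slc7a5 (0.227) was last without overlap. In TB lung all neighbours overlapped from Slc3a2 (116 TPM) and Glul (112) through Slc38a2 (52.8), Slc1a5 (46.4), Slc7a5 (32.0), Bckdk (29.3) and Bckdha (22.9) to Bcat2 (21.5), and Slc43a1 (0.292) stood apart. In CON lung Glul (402 TPM), Slc3a2 (263), Slc1a5 (94.2), Slc38a2 (60.7), Bckdha (29.0), Bckdk (26.6), Bcat2 (21.7), Slc7a5 (13.6) and Slc43a1 (2.89) followed each other with overlap between Bckdha and Bckdk only.

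Genes with the most similar profile to each member were found as the smallest Euclidean distance between log2(TPM + 1) profiles over the 14 libraries, each centred on its own mean, among 11604 genes. For Glul these were Foxo1 (distance 1.75), Pik3r1, a regulatory subunit of phosphoinositide 3-kinase (1.85), and Tcp11l2 (1.95). Foxo1 averaged 9.94 TPM in TB muscle and 1.71 TPM in CON muscle, and 4.99 TPM in TB lung and 15.3 TPM in CON lung. For Slc43a1 they were Lpin1, a phosphatidate phosphatase, and Pink1, a mitochondrial kinase (1.39 each). Slc3a2 had Nucb1 (1.29) and Il4ra, the interleukin-4 receptor (1.47), and Slc7a5 had Trim33 (0.971). Bckdk had Got2, the mitochondrial aspartate aminotransferase (0.757), and Bola3 (0.856), and Bckdha had Zfp3 (0.941) and Arl2 (1.11). The nearest genes were Med29 (0.639) and Tmem223 (0.696) for Bcat2, Ccdc50 (0.908) and Ap3m1 (1.08) for Slc38a2, and Cdc42ep1 (0.793) and Scarf2 (0.837) for Slc1a5. These distances share the libraries, their depth and the large gap between tissues, and carry no test.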

How the data were processed

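The data are 14 RNA-seq libraries of mouse gastrocnemius and lung, prepared with the strand-preserving MGIEasy RNA Directional kit and read at 100 bases, per the labels. Trim Galore, STAR 2.7.9a and RSEM 1.3.3 are named in the submitters' processing notes. They give no genome build, no tool settings and no strand option for the counting. The authors deposited for each library RSEM expected counts, estimates that split reads mapping to several genes, together with TPM and an abundance-weighted transcript length in bases, per the file headers. Expected counts were rounded to whole numbers. Between 6.28% and 11.9% of the values of a library were not whole. Identifiers were matched to symbols for 52083 of 55416 genes. Ddit3 had 2 identifiers, of which the one with more counts was used.

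Counts were fitted in R 4.3.3 with edgeR 4.0.16 (TMM, filterByExpr, glmQLFit, glmQLFTest, two-sided), on the groups compared, with Benjamini-Hochberg adjustment over all genes tested. The SE is the absolute log2 change divided by the square root of F. Ratios of TPM were tested by exact permutation over libraries (scipy 1.17.1). Alternatives were RLE and upper-quartile scaling, DESeq2 1.42.0, limma-voom and limma-trend (limma 3.58.1) on log2(TPM + 1), 1 fit of all libraries, leaving low genes in, requiring an average of 1 CPM or more, a replicate block and leaving out each library. No scaling factors was added after seeing the data, as were the alternatives for the pathway lists. The text names all members, the 3 genes of each list with the smallest unadjusted p in each tissue, and the 2 genes (3 for Glul) with the most similar profile. For Slc7a5, 1 of these similar genes is not reported here. Genes outside this rule are marked. The members and lists were chosen with earlier results of these data known. The main edgeR fit was also run on simulated counts, with far fewer changed genes than passed in lung and a single fixed spread. That run cannot show how the fit behaves on these data, and the permutation tests were not simulated. For a gene with 0 counts the limit is 3 counts per library (0.0491 to 0.0924 CPM), which covers counting error only. Replicates differed by chi-square per degree of freedom of 19.5 to 437, and each library counted as 1 sample. In lung the range was 19.5 to 41.9 between CON libraries and 240 to 376 between TB libraries. The edgeR fit took 1 spread per gene for both groups, which limits the lung p-values.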

Additional observations from a re-analysis of the deposited data

Results flagged for a closer look

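The change between TB and CON differed between tissues, by the interaction test in edgeR, for 4 of the 9 genes, where 35.6% of all 19834 genes tested passed. The lung change minus the muscle change was -4.62 for Slc43a1, -3.94 for Glul, -2.37 for Slc3a2 and -0.94 for Bckdha, on the log2 scale. Glul, Slc3a2 and Slc43a1 were higher in TB than CON muscle and lower in TB than CON lung, in every library for Glul and Slc43a1 and in all but TB 5 of lung for Slc3a2. Bckdha was higher in muscle and did not pass in lung, and its difference missed the threshold in 13 of 23 alternatives. The lung groups also differed in cell type markers, and the part of this in the differences was not tested. No single TB lung library stood apart from the other 4 by Dixon's criterion for any of the 9 genes.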

How the results depend on the processing

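In muscle, 5 of 9 genes passed, against 3 under upper-quartile scaling, 3 without scaling factors, 1 on log2(TPM + 1) and 1 to 5 when 1 library was left out (1, Glul, without any CON library; 3 without TB 3). Over all muscle genes 2196 passed, against 991 without scaling factors, 3657 in DESeq2, 415 on log2(TPM + 1), 4031 with no filter, 3459 in 1 fit of all 14 libraries and 106 to 4513 with 1 library left out (243, 141 and 106 without CON 1, 2 and 3; 4513 without TB 2, 1129 without TB 3). The higher and lower calls of 1226 and 970 became 760 and 1079 under upper-quartile scaling, where the median gene moved to -0.25, 442 and 549 without scaling factors, 1001 and 1110 in limma-voom and 157 and 258 on log2(TPM + 1). On log2(TPM + 1) the 5862 and 5651 of lung became 3594 and 7994, and the 3287 and 3770 of the interaction 2401 and 6624. Between CON tissues 8097 and 6581 became 13605 and 2159 without scaling factors and 15092 and 1287 on log2(TPM + 1). With 1 library left out, lung gave 3 to 5 members and the interaction 3 to 4. The cause was not tested.

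Same-numbered muscle libraries correlated at 0.356, -0.046 and 0.366 in their deviations from group means, and differently numbered ones at -0.405 to 0.073. In lung same-numbered libraries correlated at 0.037, 0.058 and -0.001, and differently numbered ones at -0.112 to 0.084. The main fits did not pair libraries by number, and what same-numbered muscle libraries may share was not tested. With a replicate block 5 members and 3303 genes passed in muscle, against 5 and 2196 without it. In lung 4 members and 10298 genes passed with the block, against 4 and 11513 without it. Lung TB 4 and TB 5 have no CON library of the same number, so their block terms absorb them. The blocked lung change, also within the interaction, thus rests on the libraries numbered 1 to 3.

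With 1 library left out, the log2 ratio of Slc7a5 to Slc3a2 was -0.51 to 0.28 in muscle and 2.30 to 2.52 in lung, where fewer libraries cannot reach the threshold. Changes that turned sign were all of genes that did not pass, apart from Slc38a2 between tissues (0.83 without scaling factors, 1.76 on log2(TPM + 1)). In muscle these were Psat1 (-0.076) and Rragb (-0.065) under upper-quartile scaling, and, with 1 library left out, Slc1a5 (-0.66 to 0.077), Psat1 (-0.14 to 0.55) and Rragb (-0.20 to 0.52). In lung they were Bcat2 (-0.073), Bckdha (-0.36) and Slc38a2 (-0.25) on log2(TPM + 1), and Bckdha without scaling factors (-0.10) and with 1 library left out (-0.0081 to 0.23). The interaction turned for Slc7a5 (0.40 on log2(TPM + 1), -0.72 to 0.43 with 1 library left out) and Slc1a5 (-0.61 to 0.070). Across the list genes named, 82 of 398 values in muscle lost a call and 10 gained a call. The 398 include values of genes with no call to lose, so the share lost among called genes is larger. Slc7a5 had 22 to 396 counts per muscle library and Slc43a1 13 to 308 per lung library.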
